A study of Mus musculus with 9 samples.

Results

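Tamalin and Sema4f are a pair of genes known mainly from neurons that were found at low levels in blood progenitor cells of mouse bone marrow. Both were chosen from a gene expression table as genes known mainly from neurons. The choice also asked for an FPKM under 5 and for a level in the group labelled NC more than 1.5-fold that in group WT. Tamalin and Sema4f are 2 of the 99 genes in the table analysed here. FPKM counts sequenced fragments relative to the length of the transcript and to the depth of the library, so levels of different genes can be set side by side. Since the comparison of NC with WT served to choose both genes, their values in it are a description and carry no test.

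The RNA came from bone marrow cells sorted for c-Kit, a receptor of stem cells and early progenitors, and was sequenced as poly(A) RNA. The series sets control mice beside animals with chronic myelomonocytic leukaemia (CMML), with and without a conditional knockout of Piezo1, the gene of a mechanically gated cation channel. The 9 libraries form 3 groups of 3 with the genotype codes WT, NC and NPC. What the codes stand for, and every allele, Cre driver, treatment and age, is left unsaid in the labels, so the groups keep their codes here. Reading NC as the leukaemic mice and NPC as the leukaemic mice with the knockout is an inference from the letters. Nothing says whether libraries of 1 group stem from different animals, so a p-value reflects only how far these libraries differ, possibly for technical reasons. In bulk RNA, fewer cells that express a gene and less of its RNA per cell cannot be told apart. Kit, Piezo1 and the other genes that define stem and progenitor cells were not analysed here, so neither the sort nor the knockout was checked.

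Tamalin, formerly called Grasp, encodes a scaffold protein with a PDZ domain. In neurons it links metabotropic glutamate receptors to cytohesins, which activate small GTPases of the Arf family, and so takes part in moving receptors between endosomes and the cell surface. Sema4f encodes a membrane-bound semaphorin of class 4. Semaphorins bind plexin and neuropilin receptors and steer growing axons, mostly by repelling them, and several family members also act on immune cells. Sema4f itself is known from axon guidance, from the postsynaptic density and from glia.

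On GRCm39, the build of the deposited table, Tamalin (ENSMUSG00000000531) lies on the plus strand of chromosome 15 from 101122069 to 101130637 and has 1 transcript listed. Sema4f (ENSMUSG00000000627) lies on the minus strand of chromosome 6 from 82888866 to 82916750 and has 4 transcripts listed. The promoters are shown because both genes were higher in NC than in WT, so that what their start regions share or not can be seen. Each window holds 250 bases before and 50 bases after the RefSeq start, on GRCm38.p6, which is another build than that of the table. The windows are chr15:101223957-101224256 on the plus strand for Tamalin (listed under Grasp and matched by Entrez identifier) and chr6:82939720-82940019 on the minus strand for Sema4f. Both genes matched, and capitals mark the motif matches named after the sequences.
Tamalin: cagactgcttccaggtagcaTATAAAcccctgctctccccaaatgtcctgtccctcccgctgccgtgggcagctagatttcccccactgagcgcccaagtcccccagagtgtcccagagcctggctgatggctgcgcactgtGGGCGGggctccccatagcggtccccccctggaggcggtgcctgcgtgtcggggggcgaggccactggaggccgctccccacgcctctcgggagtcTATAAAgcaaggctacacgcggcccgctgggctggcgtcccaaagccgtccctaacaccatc
Sema4f: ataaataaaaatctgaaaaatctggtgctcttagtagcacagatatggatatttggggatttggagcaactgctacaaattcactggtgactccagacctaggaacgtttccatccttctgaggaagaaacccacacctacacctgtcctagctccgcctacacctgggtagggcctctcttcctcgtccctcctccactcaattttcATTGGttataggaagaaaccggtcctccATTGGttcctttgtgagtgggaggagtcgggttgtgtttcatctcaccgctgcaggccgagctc
The Tamalin window was rich in G and C, at 66.7%, above 85.0% of the 32817 mouse promoter windows, and held 18 CpG dinucleotides. The Sema4f window had 48.7% G and C, above 34.4% of windows, and held 7 CpG, which is also the median of all windows. Motifs were searched on both strands. A GC box (GGGCGG) was found in the Tamalin window at position -108 from the start, and 35.6% of all windows hold one. No window of the pair held an E box (CACGTG, 7.15% of windows), a cyclic AMP response element (TGACGTCA, 1.79%), an AP-1 site (TGANTCA, 7.81%), an ETS site (CCGGAAGT, 3.89%), a STAT site (TTCNNNGAA, 8.29%) or a heat shock element (TTC, GAA and TTC, each set apart by NN, 0.603%). After the sequences had been read, TATAAA and CCAAT were searched as well. Tamalin held TATAAA at -230 and -12 (13.6% of windows have it), and Sema4f held CCAAT on the opposite strand, read as ATTGG, at -42 and -14 (37.4% of windows). The pair shared none of the motifs searched, which says only that these letters are not in both windows.

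Depth, worked out from how counts relate to FPKM, ran from 76614155 to 88425298 counts per library, a ratio of 1.15. The lowest counts above 0 in the table gathered at 4 (14 values, against 0 at 1 and 1 each at 2 and 3), so about 4 counts are taken as 1 sequenced fragment. The 62 genes that reached 1 FPKM in 3 or more libraries were tested. Tamalin reached 1 FPKM in all 9 libraries. Sema4f did so in 0 of 3 WT, 2 of 3 NC and 2 of 3 NPC libraries, so it entered the test only through the groups in which it was high. NC replicates 2 and 3 differed least among replicate pairs. Their chi-square over degrees of freedom was 4.83 on the counts as deposited and 1.21 with 4 counts taken as 1 fragment (chi-square test over 85 genes, p = 0.0928), against 2.28 and 1.54 for the other NC pairs on that scale. They were kept apart because the count scale is inferred, and values with both averaged are given beside the comparisons with NC.

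In WT libraries, Tamalin had an FPKM of 1.30, 1.38 and 1.33 in replicates 1 to 3. In NC its FPKM was 3.87, 2.87 and 2.80, and in NPC 3.40, 4.03 and 3.44. All 6 NC and NPC libraries lay above all 3 WT libraries, while NC and NPC overlapped, with NC replicate 1 at the level of the NPC libraries. The group means were 1.34 ± 0.0386 FPKM in WT, 3.18 ± 0.599 in NC and 3.62 ± 0.351 in NPC (SD, n = 3 each). The estimated counts behind them were 203 to 238 in WT, 466 to 694 in NC and 575 to 658 in NPC, or about 51 to 60, 116 to 174 and 144 to 164 fragments.

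Sema4f was lower throughout, with an FPKM of 0.448, 0.552 and 0.597 in WT replicates 1 to 3. Its FPKM was 1.01, 0.976 and 1.07 in NC and 0.996, 1.02 and 1.19 in NPC. Again every NC and NPC library lay above every WT library, and NC and NPC overlapped. The means were 0.532 ± 0.0767 FPKM in WT, 1.02 ± 0.0491 in NC and 1.07 ± 0.106 in NPC (SD, n = 3 each), from 183 to 256, 413 to 502 and 436 to 519 counts. Because its transcripts are longer, Sema4f had about as many fragments as Tamalin in WT (46 to 64) at a lower FPKM.

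**Figure D1:**
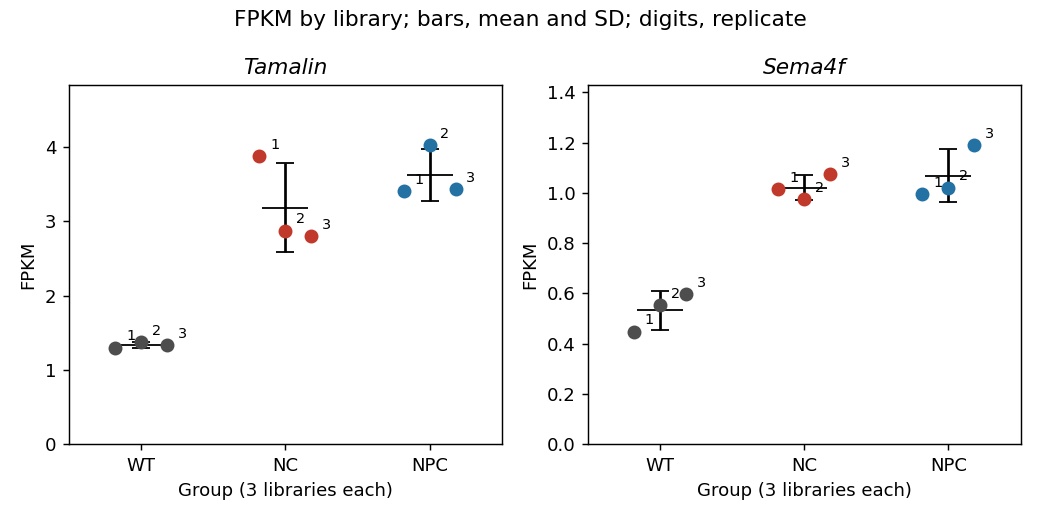
FPKM of Tamalin (left) and Sema4f (right) in each library of the groups WT, NC and NPC; digits give the replicate, horizontal lines the mean and bars the SD of 3 libraries. WT libraries sit at 1.30 to 1.38 FPKM for Tamalin and 0.448 to 0.597 for Sema4f, below all NC and NPC libraries, which overlap with each other.

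By the ratio of group means, Tamalin was 2.38-fold and Sema4f 1.92-fold higher in NC than in WT. These were numbers 2 and 3 from the top among the fold changes of the 62 tested genes, whose median was 1.01-fold. With NC replicates 2 and 3 averaged, the fitted log2 fold changes of Tamalin and Sema4f were 1.32 and 0.93, against 1.25 and 0.93 with 3 NC libraries. The rule used this contrast, so the ranks describe the choice. Of the 62 genes, 8.06% were more than 1.5-fold higher in NC, and 27.4% were higher with no overlap between the groups. At the fold limit, Gm2a, which encodes a lysosomal activator protein, lay just inside at 1.55-fold, and Lck, which encodes a T-cell kinase, just outside at 1.43-fold. The limit on the level was not a close one, since the highest value of the pair was 4.03 FPKM. Among tested genes with a mean under 5 FPKM in NC, Haao, which encodes a dioxygenase of the kynurenine pathway of tryptophan breakdown, was also above the fold limit, at 1.72-fold. It stood at 2.33 ± 0.0630 FPKM in WT and 4.00 ± 0.276 in NC (SD, n = 3 each), and was left out of the pair as it is not known mainly from neurons. A further 8 genes above 1.5-fold lay under the expression minimum and were not tested.

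The NPC libraries took no part in the choice, but the NC libraries did, as the group in which the pair was high. Sema4f also entered the tested genes only through NC and NPC libraries. Choosing genes for high values in NC can make NPC look lower beside it, so the test below is not free of the choice. The comparison of NPC with NC asks, if the codes are read as above, whether the levels differ with the Piezo1 knockout in CMML mice. Neither gene passed the test, and the groups overlapped for both, whereas 27.4% of the 62 genes did not overlap. Tamalin was 1.14-fold the NC level in the fit (95% confidence interval 0.952 to 1.36), with a log2 fold change of 0.18 ± 0.13 (SE; edgeR adjusted p = 0.334). Sema4f was 1.05-fold the NC level (0.874 to 1.26), with a log2 fold change of 0.07 ± 0.13 (SE; edgeR adjusted p = 0.757). Of the 62 genes, 14.5% passed in this comparison, 9 in all, and 16 had an unadjusted p under 0.05. These intervals do not decide on changes of the size they span, and a missed threshold does not show equal levels.

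The result for Tamalin leaned on NC replicate 1, its highest NC library. Without it the log2 fold change of NPC over NC was 0.35 (edgeR adjusted p = 0.0601). When any other single library was left out, it lay between 0.10 and 0.23. With NC replicates 2 and 3 averaged it was 0.11 (edgeR adjusted p = 0.735), and Sema4f stayed at 0.07 (edgeR adjusted p = 0.798). For Sema4f the direction turned to -0.015 without NPC replicate 3, its highest library, so no direction is given for it between NPC and NC.

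**Figure D2:**
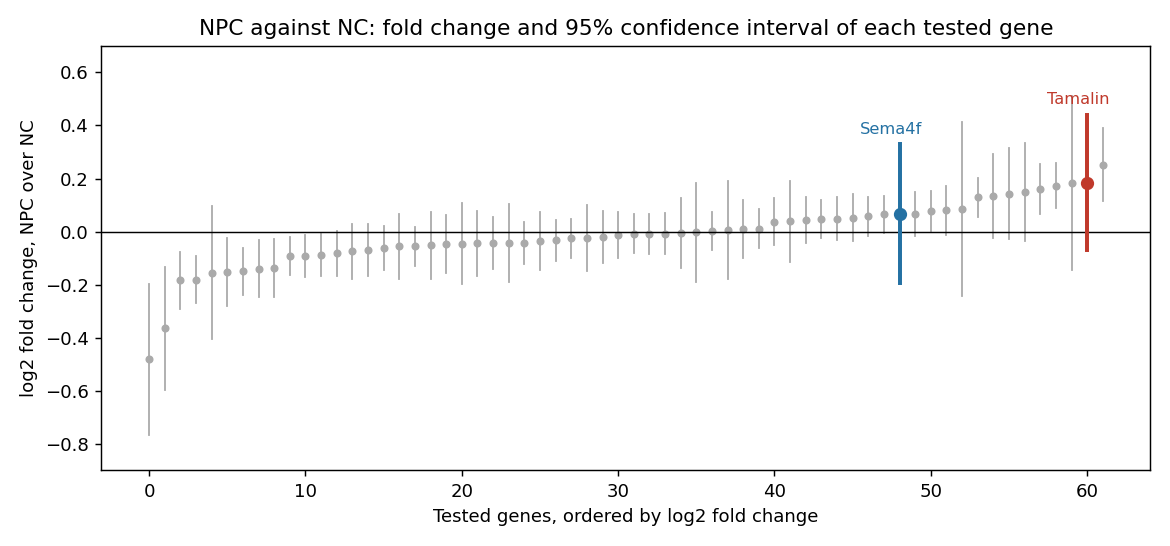
Log2 fold change of NPC over NC (vertical axis) with the 95% confidence interval for each of the 62 tested genes, ordered by value along the horizontal axis. The intervals of Tamalin (-0.07 to 0.44) and Sema4f (-0.20 to 0.33) both include 0.

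NPC is set beside WT as a description only. The WT libraries served in choosing the pair, and Sema4f entered the tested genes only through NC and NPC libraries, so no p-value or interval is given here. By the ratio of group means, Tamalin in NPC was at 2.71-fold and Sema4f at 2.01-fold the WT level, and all 3 NPC libraries lay above all 3 WT libraries for both. Of the 62 genes, 29% were higher in NPC than in WT with no overlap between the groups. Only Mx1, which encodes an interferon-induced GTPase, had a larger fold change than Tamalin among them. NC and NPC were set against the same WT libraries, so the value for NPC is no independent support for the rise in NC.

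**Figure D3:**
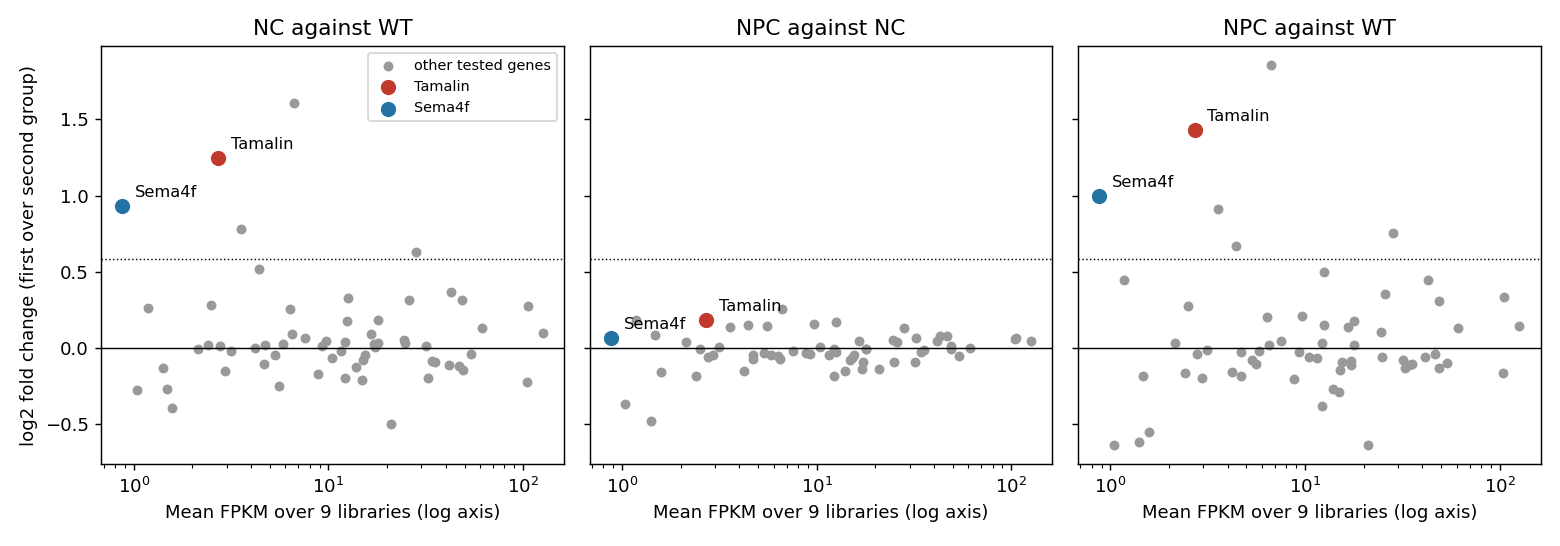
Log2 fold change (vertical axis) against mean FPKM over 9 libraries (horizontal log axis) for the 62 tested genes in 3 comparisons; the dotted line marks 1.5-fold. Tamalin and Sema4f lie at 1.25 and 0.93 in NC against WT, which chose them, at 0.18 and 0.07 in NPC against NC, and at 1.43 and 1.00 in NPC against WT.

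The order of the levels was thus the same for both genes, with WT lowest and NC and NPC above it. That WT lay below NC follows from the choice of the pair, while NC and NPC overlapped. The pair did not share its library-to-library variation within the groups. Tamalin was highest in NC replicate 1 and NPC replicate 2, whereas Sema4f was highest in NC replicate 3 and NPC replicate 3. The FPKM of Tamalin over that of Sema4f ranged from 2.23 to 2.91 in WT, from 2.61 to 3.82 in NC and from 2.88 to 3.95 in NPC, and these ranges overlapped between all groups.

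The spread between libraries was set beside the spread that counting alone gives, with 4 counts taken as 1 fragment. For Tamalin the coefficient of variation was 2.88% in WT, where counting alone gives 13.5%, and 18.8% in NC, where counting gives 8.62%. In NPC it was 9.70%, against 8.08% from counting. The WT libraries thus lay closer together than counting alone gives on average, and the NC libraries farther apart. For Sema4f the values were 14.4% in WT (13.4% from counting), 4.81% in NC (9.33%) and 9.94% in NPC (9.21%), near or under the counting value. These counting values cover counting error only.

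Both genes were among the least expressed of those tested. By mean FPKM over all libraries Tamalin was number 53 and Sema4f number 62 of 62, where the median gene had 12.2 FPKM. In WT alone Tamalin was number 59. A total of 17 tested genes had group means under 5 FPKM throughout, the pair included. Among the other 15, the fold change of NC over WT ran from 0.762 to 1.72 with a median of 0.997, with Haao at the top. The groups of these 15 genes did not overlap for 5, of which 2 were higher and 3 lower in NC, while 58.1% of all tested genes did not overlap in either direction. Between NPC and NC the 15 ran from 0.713 to 1.13, and between NPC and WT from 0.642 to 1.89. In NC the coefficient of variation of Tamalin exceeded that of all 15, whose highest was 14.2%.

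The genes nearest in level were set beside the pair by their fold change from WT to NC. Around Tamalin these were Krit1, which encodes a protein of endothelial junctions, and Acvrl1, a receptor gene of the TGF-beta family, below it, and Tom1l2 and Gpr107 above it. From WT to NC, Krit1 was at 1.01-fold, Acvrl1 at 1.22-fold, Tom1l2 at 1.01-fold and Gpr107 at 0.900-fold. The edgeR adjusted p for these 4 genes was 0.800, 0.0134, 0.865 and 0.0196. Passing against WT was common in the table. In the main fit, 32 of the 62 tested genes passed in NC against WT and 40 in NPC against WT. Next above Sema4f, the lowest gene tested, stood Scml2, a Polycomb gene that fell to 0.827 of the WT level in NC (edgeR adjusted p = 0.0359). Clec10a, a lectin gene of macrophages and dendritic cells, was at 1.20-fold (edgeR adjusted p = 0.206).

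Genes with a similar pattern were sought by the mean absolute difference of log2(FPKM + 1) over the 9 libraries, after each gene's mean had been subtracted. The tested genes closest to Tamalin were Gm2a (0.121), Haao (0.148) and Lck (0.217), where the median gene differed by 0.410. Closest to Sema4f were the leukocyte integrin gene Itgb2l (0.0564), the septin gene Septin1 (0.0595) and the integrin gene Itgb2 (0.0612), with a median of 0.202. The 1 added to FPKM shrinks the changes of a low gene, so Sema4f fell beside genes with smaller fold changes, such as Itgb2 at 1.21-fold in NC over WT. With 0.1 added instead, a choice made after the data were seen, Mx1, Sema4f and Haao were closest to Tamalin, and Haao, Gm2a and Lck to Sema4f. Haao stood near both genes on that scale, at 1.72-fold in NC and 1.89-fold in NPC over WT. Tamalin was the gene number 44 in closeness to Sema4f at 1 added and number 6 at 0.1.

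The gene ontology terms that the table gives were compared between the 2 genes of the pair. Both were chosen as genes known mainly from neurons, so shared synapse terms follow in part from the choice. Of 17 terms for Tamalin and 25 for Sema4f, 7 were shared, and 4 of these concern the synapse. The table carries such text for 71 genes, and 8 genes, the pair included, have at least 1 of these synapse terms. Of the other 6, 5 had a mean under 5 FPKM and are described here. Dgke, a diacylglycerol kinase gene, did not pass in NC against WT, at 2.13 ± 0.161 FPKM in WT and 2.12 ± 0.0539 in NC (edgeR adjusted p = 0.971), nor in NPC against WT (edgeR adjusted p = 0.697).

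The other 4 of these 5 genes lay under the expression minimum. Drp2, a dystrophin-related gene of Schwann cells, had 0.168 to 0.210 FPKM in WT, 0.152 to 0.216 in NC and 0.101 to 0.166 in NPC. NPC thus lay below WT with no overlap, and with no expression minimum its log2 fold change was -0.52 (edgeR adjusted p = 0.0347), opposite in direction to the pair. Grm6, a metabotropic glutamate receptor gene of the retina, ranged from 0 to 0.0499 FPKM and was listed at 0 in 2 libraries. Sez6 was listed at 0 in 7 of 9 libraries. Cttnbp2, a gene of dendritic spines, had 4 to 7 counts in WT, 8 to 16 in NC and 20 to 29 in NPC libraries, that is, few fragments in each. With no expression minimum its log2 fold change in NPC against WT was 2.08 (edgeR adjusted p = 0.0367), in the same direction as the pair. In NC against WT it was 0.88 (edgeR adjusted p = 0.564). In that fit 51 genes passed in NPC against WT and 39 in NC against WT. It used the counts as deposited, of which about 4 are taken as 1 fragment.

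**Figure D4:**
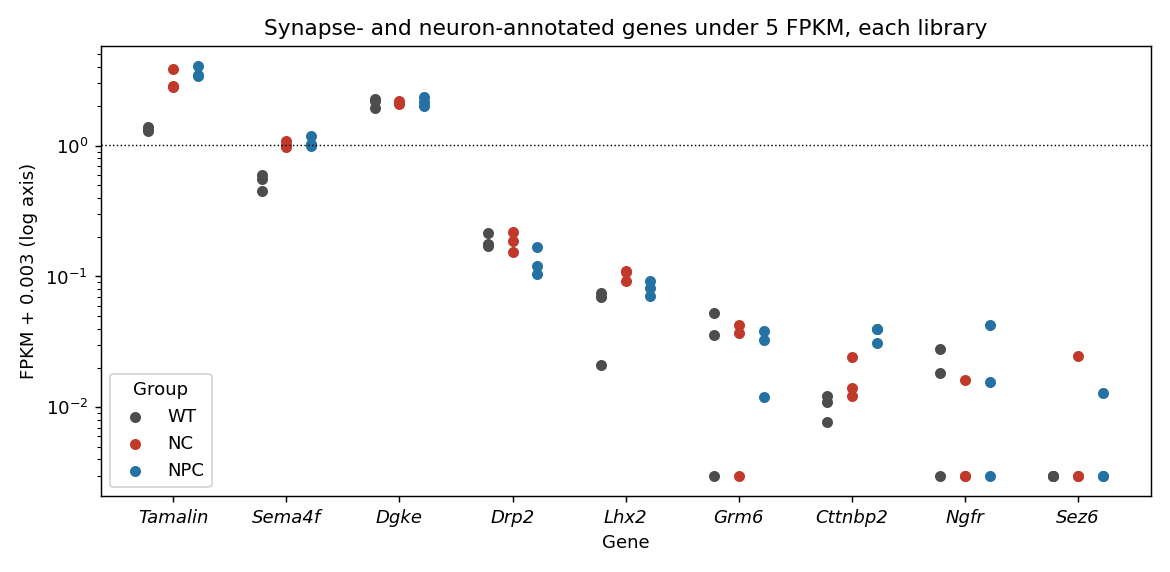
FPKM plus 0.003 (log axis) of the synapse- and neuron-annotated genes with a mean under 5 FPKM, with 1 point for each library of WT, NC and NPC; the dotted line marks 1 FPKM. Tamalin and Sema4f are higher in NC and NPC, the groups overlap for Dgke, and the other 6 genes reach at most 0.216 FPKM. Among these, Cttnbp2 is higher than WT in NC and NPC with no overlap. Lhx2 is so in NC only, and Drp2 is lower than WT in NPC with no overlap.

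Lists of related genes had few members in the table. Of 43 semaphorin, plexin and neuropilin pathway genes, Sema4f and Fer, a non-receptor tyrosine kinase gene, were present. Fer fell, from 1.94 ± 0.328 FPKM in WT to 1.48 ± 0.209 in NC and 1.32 ± 0.0630 in NPC (SD, n = 3 each). Its log2 fold change was -0.40 ± 0.12 in NC (SE; edgeR adjusted p = 0.00692) and -0.55 ± 0.12 in NPC (SE; edgeR adjusted p = 0.000238), each against WT. Such a pass does not set Fer apart, since 32 of the 62 tested genes passed in NC and 40 in NPC, each against WT. The same holds for the passes against WT given below. Of 29 genes for partners of Tamalin and receptor scaffolds, Tamalin itself was the only one present. No plexin, neuropilin, cytohesin or group I glutamate receptor gene was analysed here, so receptors and partners of the pair cannot be described.

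Markers of other cells were set beside the pair. Of 36 neuron and synapse genes 3 were present (Cttnbp2, Lhx2 and Ngfr), and their summed level was 0.0273 to 0.105 FPKM in WT, 0.112 to 0.128 in NC and 0.117 to 0.155 in NPC libraries. Every NC and NPC sum thus lay above every WT sum, but at few counts. Lhx2 had 0.0181 to 0.0718 FPKM in WT, 0.0896 to 0.1065 in NC and 0.0681 to 0.0888 in NPC. These came from 7 to 27, 36 to 42 and 27 to 32 counts. With no expression minimum Lhx2 did not pass against WT in NC (edgeR adjusted p = 0.175) or in NPC (edgeR adjusted p = 0.455). Ngfr, a neurotrophin receptor gene, was listed at 0 in 4 libraries and reached at most 0.0396 FPKM. Of 15 Schwann cell and glia genes 2 were present, Ngfr and Drp2, at a summed 0.175 to 0.225 FPKM in WT, 0.165 to 0.216 in NC and 0.101 to 0.205 in NPC. Lck, the only one of 11 T and NK cell genes in the table, rose from 3.30 ± 0.292 FPKM in WT to 4.72 ± 0.272 in NC and 5.24 ± 0.658 in NPC (SD, n = 3 each; edgeR adjusted p = 1.61e-05 and 1.26e-07 against WT). Of 14 granulocyte and mast cell genes 3 were present, at a summed 35.0 to 36.1 FPKM in WT, 44.1 to 48.7 in NC and 47.6 to 49.7 in NPC. Nearly all of that sum was Itgb2l, which, like Lck, was higher in every NC and NPC library than in every WT library. The other members of the list went both ways. Adora3 had a mean of 0.182 FPKM in WT, 0.440 in NC and 0.391 in NPC. Alox12 had 0.443, 0.247 and 0.262. Whether Alox12 marks granulocytes or mast cells was not tested. Of 8 megakaryocyte genes Tspan32 was present, at 15.5 to 15.9, 15.8 to 17.3 and 15.94 to 18.1 FPKM. It was higher in NPC than in WT with barely no overlap (edgeR adjusted p = 0.00702), and did not pass in NC against WT (edgeR adjusted p = 0.0709). Of 11 erythroid genes Gmpr was present, at 5.59 to 6.42, 4.89 to 5.16 and 5.39 to 5.97 FPKM. Of 10 monocyte and macrophage genes Slfn4 was present, at 42.9 to 43.7, 38.3 to 41.6 and 38.4 to 43.0 FPKM. Gmpr and Slfn4 were lower in every NC library than in every WT library, and in NPC both overlapped with WT. Of 9 stromal and endothelial genes 3 were present, at a summed 2.59 to 2.93, 2.48 to 2.91 and 2.34 to 2.43 FPKM. That sum hides opposite directions, and whether Cdh1 marks stromal or endothelial cells was not tested. Cav2 was at 0.651-fold the WT level in NPC with no overlap (edgeR adjusted p = 0.000289). It was also lower in NPC than in NC (edgeR adjusted p = 0.0126). Cdh1, which lay under the expression minimum, was at 1.41-fold the WT level in NPC with no overlap. The groups overlapped for Pdgfb. Of 9 cell cycle genes Cdc45 and Ccnd2 were present, at a summed 34.7 to 36.3, 35.8 to 37.9 and 37.0 to 38.8 FPKM. In NPC against WT, Cdc45 passed as higher though the groups overlapped (edgeR adjusted p = 0.0300). Ccnd2 did not pass there (edgeR adjusted p = 0.4325). None of 8 B and plasma cell genes and none of 9 stem and progenitor cell genes was analysed here. The part of any of these cells in the levels of Tamalin and Sema4f was not tested.

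A change in the mix of transcripts can show in the ratio of count to FPKM once depth is taken out, since that ratio is a mean transcript length. For Tamalin, with 1 listed transcript, no such change can be seen. For Sema4f, with 4 listed transcripts, the length was 5335, 5316 and 5307 bases in WT replicates 1 to 3. It was 5302, 5305 and 5293 bases in NC and 5312, 5317 and 5294 in NPC. All WT values lay above all NC values, the nearest being 5307 and 5305 bases, and NPC overlapped with both. The whole range was 0.791% of the median, which is within the 1% allowed in the depth fit. Differences this small cannot be resolved by the ratio. Whether the mix of transcripts differed between the groups was not tested.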

How the data were processed

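RNA from c-Kit+ marrow cells was sequenced as strand-marked poly(A) libraries, per the labels' protocols. The submitters' processing notes name, without roles, StringTie 2.1.6, HISAT2 2.2.1, cutadapt 1.9, edgeR, DESeq2 and the build GRCm39. Annotation release, strand setting and filters are not given in sources used here. In 1 table the authors deposited FPKM per gene and library, and beside it an estimated count that is not normalized.

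Library depth came from dividing counts by FPKM for 61 genes that had 200 counts or more throughout (100% of values within 1% of the fitted ratio), scaled by the lengths of 6 genes with 1 transcript in GENCODE M21. Quasi-likelihood tests were run in edgeR 4.0.16 under R 4.3.3 on the estimated counts, which are whole numbers, with that depth as library size and all 9 libraries in 1 fit without a block. Two-sided p-values were adjusted (Benjamini-Hochberg) across all 62 tested genes, with 0.05 as threshold. Standard errors were derived from F statistics. The planned test of the pair in NPC against WT is not given, since WT libraries served in its choice. NC libraries served in it too, and the test against NC is given with that limit. Alternatives used limma 3.58.1, DESeq2 1.42.0, other scalings and filters, and each library left out.

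The genes and lists were chosen with earlier results of these data known. Named were the pair, genes at the limits of its rule, the 2 nearest tested genes in level on each side, the 3 most similar in pattern, and members of the fixed lists. The synapse-term genes, Mx1 and the genes nearest with 0.1 added were named after their values were seen. A result on 1 further gene is not reported here. Promoter sequences are from RefSeq (GRCm38.p6). Python 3.11.15 with matplotlib 3.10.9 and pandas 2.3.3 drew figures and tables.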

Additional observations from a re-analysis of the deposited data

How the results depend on the processing

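Over 20 alternatives, both genes were higher in NPC than in WT in each (log2 fold change 0.98 to 1.48 for Tamalin and 0.43 to 1.09 for Sema4f), and neither passed between NPC and NC in any (edgeR, DESeq2 or limma adjusted p 0.0601 to 0.786 and 0.516 to 0.933). Leaving out each library in turn gave 0.10 to 0.35 for Tamalin and -0.015 to 0.12 for Sema4f between NPC and NC. From WT to NC it gave 1.08 to 1.34 and 0.83 to 1.02. There, limma on log2(FPKM + 1) gave 0.83 for Tamalin and 0.40 for Sema4f, because the added 1 shrinks changes of low genes. The number of genes that changed between NPC and NC was 9, but 14 with DESeq2, 4 with NC replicates 2 and 3 averaged, and 3 to 15 when a library was left out. The cause was not tested. With the replicate number as a block, log2 fold changes between NPC and NC were 0.19 for Tamalin and 0.07 for Sema4f, and no call on the pair changed. Deviations of same-numbered libraries correlated at -0.30 to 0.29, with 3 of 9 pairs over 0.1. Those of differently numbered libraries correlated at -0.24 to 0.37, with 5 of 18 over 0.1. No pairing by number was thus seen, but libraries can be paired without sharing such deviations, so pairing is not excluded. The low counts of both genes limit the precision of their values.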
